A study of Mus musculus with 8 samples.

Results

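Ribosomal protein genes encode the proteins of the ribosome, and 2 kinds of ribosome were considered apart: the cytosolic ribosome, which translates nuclear-encoded mRNA, and the mitochondrial ribosome, which translates the mRNA of the mitochondrial genome. Members were ATAC-seq peaks whose nearest protein-coding gene within 50 kb was a cytosolic (Rpl, Rps, Rplp0 to Rplp2, Rpsa) or a mitochondrial (Mrpl, Mrps) ribosomal protein gene. This rule took 283 of the 57199 peaks, 140 at 73 cytosolic genes and 143 at 68 mitochondrial genes. The gene table holds 81 cytosolic and 78 mitochondrial genes, so 18 genes had no assigned peak.

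ATAC-seq uses a transposase that inserts adapters into open DNA, and counts over a peak are read as accessibility. Regulatory T (Treg) cells, which restrain immune responses and express the transcription factor Foxp3, were taken by sorting from spleens of mixed marrow chimeras by CD45.2, CD4 and a Foxp3-driven yellow fluorescent protein, without CD45.1. The cells were either Flcn KO (Foxp3Cre Flcn fl/fl, 4 libraries) or WT (4 libraries). Cre is driven by Foxp3, so in Flcn KO chimeras the floxed gene is targeted in Foxp3-expressing cells, and the labels do not say whether WT cells carry Foxp3Cre. No age or sex is stated.

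Cytosolic ribosomal proteins are made in step with growth. Their mRNAs begin with a terminal oligopyrimidine (TOP) tract, a cytosine followed by pyrimidines, through which mTORC1 signalling controls their translation, mainly without a change of transcription. Mitochondrial ribosomal proteins are encoded in the nucleus, translated in the cytosol and imported, and their promoters are typical of housekeeping genes, with sites for ETS-family factors and NRF1. Flcn encodes folliculin, a lysosomal protein through which mTORC1 holds the E-box-binding factors TFEB and TFE3 in the cytosol. The comparison asks whether loss of Flcn in Treg cells altered accessible chromatin at the genes of either ribosome.

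The sequences below are RefSeq promoter stretches of GRCm38.p6 (the assembly behind mm10), from 150 bases before the annotated start to 20 bases from the start on, written 5' to 3' on the gene's strand. Rpl15 and Mrpl17 are shown because theirs had the highest CPM among promoter peaks assigned to members of each ribosome. Rps6 encodes the protein phosphorylated downstream of mTORC1 and S6 kinase. Rps24, Mrps22 and Mrpl36 are shown because their promoter peaks were among the few whose Flcn KO libraries all lay below the WT libraries. Capitals mark searched motifs and, at Rpl15 and Rps6, the pyrimidine run that opens the transcript.
Rpl15 (chr14:18270967-18271136, minus strand): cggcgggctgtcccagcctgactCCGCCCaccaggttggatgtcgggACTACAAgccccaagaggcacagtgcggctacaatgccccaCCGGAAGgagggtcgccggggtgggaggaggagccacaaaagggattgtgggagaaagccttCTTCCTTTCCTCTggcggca
Rps6 (chr4:86857348-86857517, minus strand): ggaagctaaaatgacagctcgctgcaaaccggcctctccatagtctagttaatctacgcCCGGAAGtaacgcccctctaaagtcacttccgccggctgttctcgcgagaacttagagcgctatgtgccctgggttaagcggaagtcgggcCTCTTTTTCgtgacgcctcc
Rps24 (chr14:24490528-24490697, plus strand): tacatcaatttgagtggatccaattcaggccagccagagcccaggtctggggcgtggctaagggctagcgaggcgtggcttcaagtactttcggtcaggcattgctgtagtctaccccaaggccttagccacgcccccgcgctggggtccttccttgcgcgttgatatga
Mrpl17 (chr7:105811068-105811237, minus strand): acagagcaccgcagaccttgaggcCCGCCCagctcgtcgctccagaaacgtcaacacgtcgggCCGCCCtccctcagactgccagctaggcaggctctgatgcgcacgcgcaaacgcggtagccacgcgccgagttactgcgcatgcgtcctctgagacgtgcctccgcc
Mrps22 (chr9:98601660-98601829, minus strand): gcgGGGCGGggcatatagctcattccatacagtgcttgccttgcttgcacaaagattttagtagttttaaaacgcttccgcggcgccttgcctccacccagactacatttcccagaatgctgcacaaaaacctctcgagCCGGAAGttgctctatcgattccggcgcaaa
Mrpl36 (chr13:73330859-73331028, plus strand): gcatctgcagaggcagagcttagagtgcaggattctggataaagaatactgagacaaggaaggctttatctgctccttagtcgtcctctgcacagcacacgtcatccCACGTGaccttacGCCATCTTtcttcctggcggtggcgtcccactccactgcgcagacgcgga
The Rpl15 transcript opens with a run of 13 pyrimidines and that of Rps6 with a run of 9. Rpl15, Rps6 and Mrps22 hold the ETS core CCGGAAG, Rpl15 and Mrps22 as well as Mrpl17 hold the Sp/KLF box GGGCGG on either strand, and Mrpl36 holds the E-box CACGTG beside a reverse-strand YY1 motif. None of the searched motifs lies in the Rps24 stretch, which says only that these letters are not in this window.

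Facts of the whole table bear on these values. The libraries held between 2723344 and 5111728 counts, all in peaks, and between 88.7% and 92.7% of a library's peak values were even. Counting both mates of a read pair would give such values, which was not tested, and fragments would then be fewer than counts. Marker levels are sums over the highest peak of each gene. All 7 Treg and T cell markers checked had a peak, and their summed level was 341 to 360 CPM in Flcn KO and 309 to 323 CPM in WT. Single markers differed in direction: Ikzf2 had 87.9 to 122 CPM in Flcn KO and 80.2 to 89.7 CPM in WT. Cd4 had 29.7 to 38.3 and 34.2 to 41.5 CPM, and at both genes the groups overlapped. The other marker lists had peaks for 2 of 2 CD8 genes (16.03 to 35.8 CPM in Flcn KO, 18.1 to 29.0 CPM in WT), 2 of 4 B cell genes (16.8 to 22.7 and 13.8 to 21.2 CPM), 2 of 4 myeloid genes (11.4 to 16.8 and 10.7 to 17.4 CPM), 1 of 2 natural killer genes (1.52 to 3.48 and 5.10 to 8.92 CPM) and 2 of 2 erythroid genes (14.5 to 19.2 and 12.2 to 17.4 CPM). Their part in the results was not tested.

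Most ribosomal protein genes had an accessible promoter in both genotypes. A promoter peak overlapped the window from 250 bases before to 50 after a gene's start or, for the 29 genes without such a window in the table, lay within 1000 bp of a gene end. Own promoter peaks were found for 69 cytosolic and 57 mitochondrial genes. For a further 5 cytosolic and 18 mitochondrial genes, a peak overlapped the promoter window but was assigned to a neighbouring gene that starts or ends there, as with Rplp2 (Pidd1), Rpl37 (Card6), Mrpl18 (Tcp1) and Mrpl51 (Ncapd2). Together 74 of 81 cytosolic and 75 of 78 mitochondrial genes had a peak at their promoter. The other genes were Rpl3l, Rpl10l, Rpl39l and Rpl32l, Rpl4, Rpl17 and Rps25, and Mrpl4, Mrpl20 and Mrpl43. Rpl17 and Mrpl4 have no promoter window in the table, so a promoter peak assigned to a neighbour could not be found for them. Rpl10l and Rpl39l are retrogene copies known for expression in testis, and Rpl3l is known from muscle.

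Levels are counts scaled to the library size (CPM), and between peaks they are compared per kilobase of peak. Tested promoter peaks had a median of 61.6 CPM per kb at cytosolic genes and 46.9 CPM per kb at mitochondrial genes, beside 50.8 CPM per kb at promoter peaks of all genes. By subunit, the median was 68.9 CPM per kb for the 31 promoter peaks of the small (40S) cytosolic subunit. It was 47.3 CPM per kb for 38 promoter peaks of the large (60S) subunit. The 2 promoter peaks of its stalk proteins Rplp0 and Rplp1 were counted apart, with a median of 100 CPM per kb. For the mitochondrial ribosome the median was 62.7 CPM per kb for the 24 promoter peaks of the small subunit and 33.3 CPM per kb for the 33 of the large subunit. Within each subunit levels spread widely, from 5.46 to 323 CPM per kb in the 60S subunit and from 7.62 to 321 CPM per kb in the large mitochondrial subunit.

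Among promoter peaks assigned to cytosolic members, the highest was that of Rpl15, a protein of the 60S core (peak at chr14:18270843-18271360, 323 CPM per kb). It had 160, 174, 163 and 186 CPM in Flcn KO replicates 1 to 4, against 156, 156, 167 and 176 CPM in WT. The groups overlap, with 171 ± 11.9 CPM in Flcn KO and 164 ± 9.76 CPM in WT (SD, n = 4). Rps29, Rps13 and Rps6 of the 40S subunit were also among the high promoters, at 212, 211 and 192 CPM per kb. At the low end stood Rpl19 (5.46 CPM per kb), Rpl23 (12.3) and Rpl35a (12.5), with 4.18 ± 3.03 CPM in Flcn KO and 3.96 ± 1.42 CPM in WT at Rpl19 (SD, n = 4).

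Among promoter peaks assigned to mitochondrial members, the highest were those of Mrpl50 (321 CPM per kb) and Mrpl17 (319 CPM per kb), both of the large subunit. Mrpl17 (chr7:105810861-105811505) had 168, 236, 211 and 246 CPM in Flcn KO replicates 1 to 4, against 191, 184, 212 and 198 CPM in WT. The Flcn KO libraries spread around the WT ones, with 215 ± 34.94 CPM in Flcn KO and 197 ± 11.9 CPM in WT (SD, n = 4). Mrps16 of the small subunit and Mrpl32 of the large subunit, a substrate of the mitochondrial m-AAA protease, had 273 CPM per kb each. The lowest were Mrpl24, Mrps25 and Mrpl11, at 7.62, 8.96 and 9.44 CPM per kb.

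**Figure D1:**
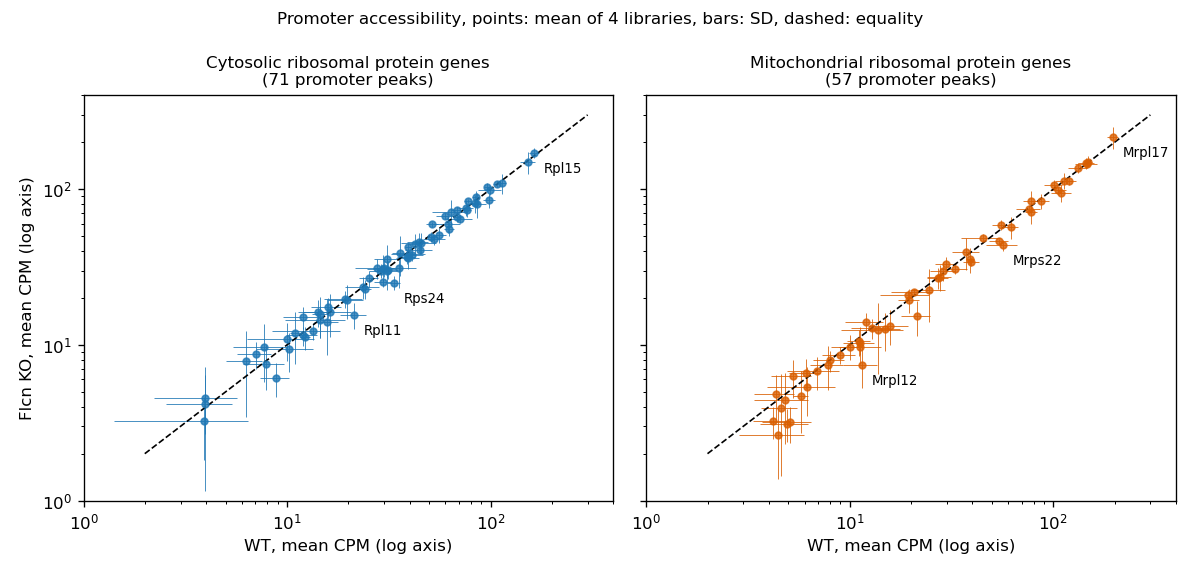
Mean CPM of each tested promoter peak in Flcn KO (vertical, log axis) and WT (horizontal, log axis), 71 peaks of cytosolic and 57 of mitochondrial ribosomal protein genes; bars are the SD over 4 libraries and the dashed line marks equal levels. The points follow the line over the whole range, up to 215 CPM in Flcn KO and 197 CPM in WT at Mrpl17, with wider bars for the low promoters.

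No peak at a cytosolic ribosomal protein gene passed the test. Of 140 peaks, 132 passed the low-count filter, and of these 0 rose, 0 fell and 132 did not pass (quasi-likelihood test of edgeR, Benjamini-Hochberg adjusted over the 47859 peaks tested), where 2.37% of all tested peaks were called. The lowest adjusted p among them was 0.139. By edgeR's unadjusted p, 7 peaks lay below 0.05, 2 of them higher in Flcn KO and 5 lower, 5.30% beside 12.9% of all tested peaks, and DESeq2 and limma-voom called 0. The median log2 fold change was 0.00 for the 132 peaks and 0.00 over all tested peaks, and 66 of the 132 lay above 0. The libraries of the groups did not overlap at 6 peaks (4.55%), beside 7.59% of all tested peaks.

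The promoters of the cytosolic genes were measured with enough precision to bound most changes. One of the promoter peaks of Rpl3, a 60S protein, did not pass the low-count filter. Of 71 tested promoter peaks, 0 were called by edgeR, DESeq2 or limma-voom, beside 0.537%, 0.537% and 0.469% of promoter peaks of all genes, and 2 had an unadjusted p below 0.05, beside 7.23%. The 95% interval of the log2 fold change lay within a 2-fold change either way at 67 of the 71 peaks (94.4%, beside 88.7% of promoter peaks of all genes) and within 1.5-fold at 53 (74.6%, beside 63.7%). The point estimates lay beyond a 1.5-fold change at 0 peaks, and they ran from −0.55 at Rpl35a to 0.36 at Rpl26. The median was −0.02, against −0.04 for promoter peaks of all genes. Libraries of the groups did not overlap at 3 promoters, among them Rps24 below WT and Rps27a above WT, where 4.88% of all promoter peaks showed this.

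Among the promoter peaks of 40S genes, the lowest unadjusted p belonged to that of Rps24, a gene mutated in Diamond-Blackfan anaemia in humans (chr14:24490475-24490831). It had 24.6, 28.1, 25.4 and 22.1 CPM in Flcn KO replicates 1 to 4, against 33.6, 29.9, 34.7 and 35.4 CPM in WT. Each Flcn KO library lay below each WT library, but the log2 fold change of −0.41 (SE 0.16) did not pass the test (edgeR adjusted p = 0.198). The Rps6 promoter (chr4:86857198-86857629) had 67.7, 79.6, 93.5 and 85.3 CPM in Flcn KO and 81.8, 82.5, 90.3 and 81.4 CPM in WT. The groups overlap there, and the interval of the log2 fold change ran from −0.27 to 0.17 (edgeR adjusted p = 0.915). Rps19, whose human homologue is the most often mutated gene in Diamond-Blackfan anaemia, had 35.5 ± 8.51 CPM in Flcn KO and 31.1 ± 4.25 CPM in WT (SD, n = 4; difference of 0.19 log2 units, SE 0.17, adjusted p = 0.718). Rps14, the haploinsufficient gene of the human 5q- syndrome, had 85.2 ± 9.68 and 98.2 ± 6.64 CPM in Flcn KO and WT (−0.20, SE 0.10, adjusted p = 0.418). For Rps3, a protein of the mRNA entry channel, the log2 fold change was 0.12 (SE 0.13), and for Rpsa, which is also known as the laminin receptor, −0.14 (SE 0.12), with adjusted p = 0.796 and 0.721.

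Among the 60S genes, Rpl5 and Rpl11 encode the proteins that join 5S ribosomal RNA and can bind Mdm2, the inhibitor of p53. The Rpl11 promoter (chr4:136053239-136053642) had 16.03, 17.1, 17.9 and 11.4 CPM in Flcn KO replicates 1 to 4, against 20.1, 17.8, 24.99 and 22.1 CPM in WT. Only Flcn KO replicate 3 reached the lowest WT library, and the log2 fold change of −0.43 (SE 0.20) did not pass the test (edgeR adjusted p = 0.341). The Rpl5 promoter had 30.8 ± 7.13 CPM in Flcn KO and 29.6 ± 4.90 CPM in WT (SD, n = 4; 0.07, SE 0.17, adjusted p = 0.915). Rpl22, which is needed for development of alpha-beta T cells in mice, had 44.2 ± 7.16 and 42.5 ± 3.40 CPM in Flcn KO and WT (0.06, SE 0.14, adjusted p = 0.908). Rpl13a, known for a role in interferon-driven translational silencing, had a log2 fold change of −0.05 (SE 0.11). The stalk proteins recruit elongation factors: the promoters of Rplp0 and Rplp1 differed by −0.05 (SE 0.12) and −0.13 (SE 0.14) on the log2 scale, and the peak over the Rplp2 start, assigned to Pidd1, had −0.29 (SE 0.17), with adjusted p = 0.916, 0.766 and 0.483.

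Away from promoters, 61 tested peaks were assigned to cytosolic genes, and 0 of them passed the test, beside 2.87% of all tested peaks outside promoters. The largest differences at or above the median level of all tested peaks were a peak 9.11 kb from Rps21 (12.2 ± 3.62 CPM in Flcn KO and 7.99 ± 1.88 CPM in WT, SD, n = 4; difference of 0.63 log2 units, SE 0.27) and a peak 35.6 kb from Rpl11 (8.91 ± 2.28 and 14.1 ± 2.21 CPM; −0.65, SE 0.24), with edgeR adjusted p = 0.273 and 0.191. The lowest adjusted p of the cytosolic set belonged to a peak 4.26 kb from Rps20, which had 25.03, 17.1, 24.4 and 27.8 CPM in Flcn KO replicates 1 to 4, against 15.4, 16.5, 11.7 and 19.4 CPM in WT (0.57, SE 0.20, adjusted p = 0.139). Flcn KO replicate 2 lay among the WT libraries there, and the others above them. Rpl11 had 8 tested peaks, the most of any member gene, whose log2 fold changes ran from −0.65 to 0.42. Peaks 2.50 kb from Rps16 and 16.3 kb from Rpl3 held low counts, with differences of −0.82 (SE 0.29) and −1.17 (SE 0.42) log2 units and adjusted p = 0.157 and 0.158. A peak 2.71 kb from Rpl12 had a log2 fold change of −0.30 (SE 0.25), the Rpl36 promoter 0.34 (SE 0.22), and the Rpl30 promoter, among the 5 highest of the ribosome, 0.00 (SE 0.09).

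**Figure D2:**
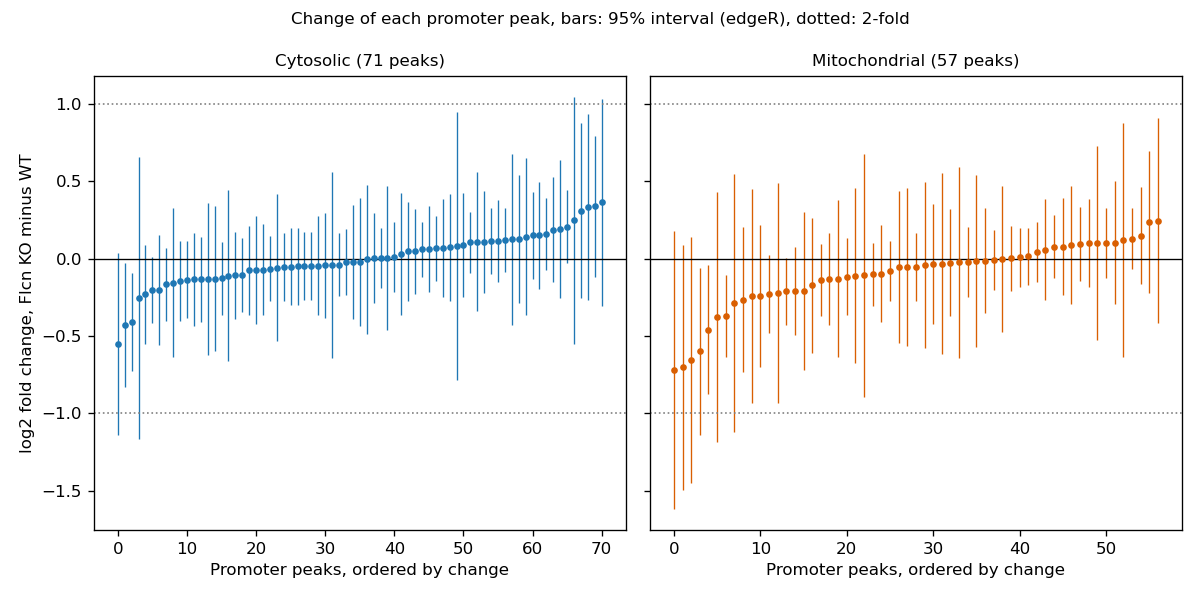
Log2 fold change, Flcn KO minus WT, of the 71 cytosolic and 57 mitochondrial promoter peaks in order of size; bars are 95% intervals from edgeR and dotted lines mark a 2-fold change. The estimates run from −0.55 to 0.36 at cytosolic and from −0.72 to 0.25 at mitochondrial genes.

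At mitochondrial ribosomal protein genes 1 peak rose, and it lay far from any promoter. Of 143 peaks, 130 passed the low-count filter, and of these 1 rose, 0 fell and 129 did not pass (edgeR adjusted over all tested peaks), where 1.35% of all tested peaks were called higher, 1.02% lower and 2.37% in either direction. The same peak was the only call by DESeq2 and by limma-voom, which called 2.34% and 2.01% of all tested peaks. By unadjusted p, 11 peaks lay below 0.05, 3 of them higher in Flcn KO and 8 lower, 8.46% beside 12.9% of all tested peaks. The median log2 fold change was −0.06, against 0.00 over all tested peaks, and 50 of the 130 lay above 0. The libraries of the groups did not overlap at 9 peaks (6.92%, beside 7.59%).

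The called peak (chr3:8766630-8767207) lies 34.94 kb from the end of Mrps28, which encodes a protein of the small mitochondrial subunit, outside any protein-coding gene. It had 85.2, 79.1, 78.8 and 76.96 CPM in Flcn KO replicates 1 to 4, against 29.5, 54.4, 51.0 and 56.6 CPM in WT. All Flcn KO libraries lay above all WT libraries, and WT replicate 1 was the lowest. The mean was 80.0 ± 3.61 CPM in Flcn KO and 47.9 ± 12.5 CPM in WT (SD, n = 4), 1.68-fold higher in Flcn KO (difference of 0.75 log2 units, SE 0.14, edgeR adjusted p = 0.00146). The next protein-coding genes were LOC115489673 (96.9 kb away), Hey1 (99.6 kb), which encodes a transcriptional repressor of the Notch pathway, and Tpd52 (159 kb), so the assignment to Mrps28 rests on position alone. The promoter of Mrps28 had 113 CPM in both Flcn KO and WT (0.00, SE 0.10, adjusted p = 0.997), and 3 tested peaks inside the gene lay between −0.23 and 0.39. In bulk libraries, a larger share of cells with an open site and a wider opening per cell cannot be told apart.

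**Figure D3:**
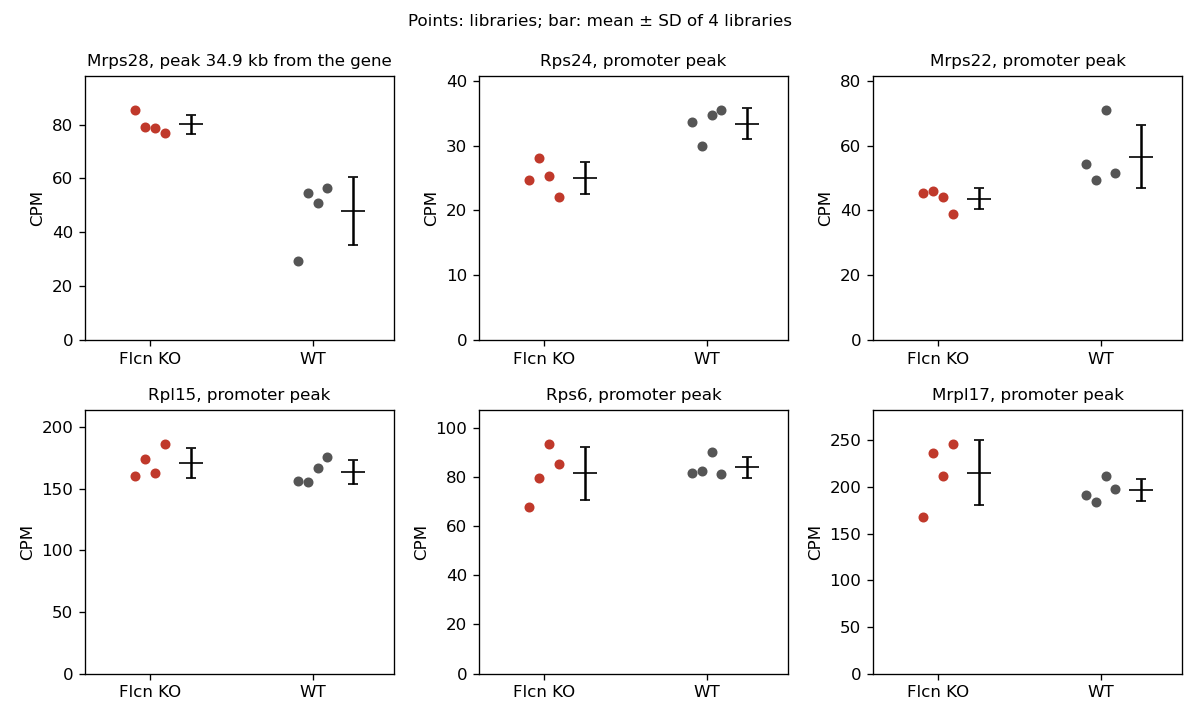
CPM in each library (points) with the mean ± SD of 4 libraries (bars), for the called peak near Mrps28 and the promoter peaks of Rps24, Mrps22, Rpl15, Rps6 and Mrpl17. The Flcn KO libraries lie above WT at the Mrps28 peak (76.96 to 85.2 against 29.5 to 56.6 CPM) and below WT at Rps24 and Mrps22, and the groups overlap at Rpl15, Rps6 and Mrpl17.

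No promoter peak of a mitochondrial ribosomal protein gene passed the test. Of 57 tested promoter peaks, 0 were called by edgeR, DESeq2 or limma-voom, beside 0.537% of promoter peaks of all genes by edgeR (0.264% higher, 0.273% lower), and 3 had an unadjusted p below 0.05 (5.26%, beside 7.23%). These 3 were lower in Flcn KO, as were 503 of the 740 such promoter peaks of all genes. The 95% interval lay within 2-fold at 51 of the 57 (89.5%, beside 88.7%) and within 1.5-fold at 34 (59.6%, beside 63.7%). The log2 fold changes ran from −0.72 at Mrpl11 to 0.25 at Mrpl52, both at low levels (2.63 ± 1.27 CPM in Flcn KO and 4.43 ± 1.56 CPM in WT at Mrpl11, SD, n = 4). The median was −0.05, against −0.04 for promoter peaks of all genes, and 18 of the 57 lay above 0 (31.6%, beside 41.7%). The libraries of the groups did not overlap at Mrps22, Mrps26 and Mrpl36, each lower in Flcn KO, 5.26% of the 57 where 4.88% of all promoter peaks showed this.

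In the small mitochondrial subunit, the Mrps22 promoter (chr9:98601458-98601914) had 45.4, 46.0, 44.3 and 38.9 CPM in Flcn KO replicates 1 to 4, against 54.4, 49.5, 70.9 and 51.7 CPM in WT. WT replicate 3 stood highest, and the log2 fold change of −0.37 (SE 0.13) did not pass the test (edgeR adjusted p = 0.152). Mrps12 encodes the protein of the decoding centre that in bacteria carries streptomycin resistance, and had 48.4 ± 3.32 CPM in Flcn KO and 44.9 ± 9.77 CPM in WT (SD, n = 4; 0.10, SE 0.14, adjusted p = 0.847). Mrps18b, with 57.1 ± 8.94 and 61.9 ± 5.23 CPM in Flcn KO and WT, differed by −0.12 log2 units (SE 0.12, adjusted p = 0.774). Mrps5, whose knockdown lengthens life in worms, held few counts at its promoter, with 3.18 ± 0.831 and 5.08 ± 1.37 CPM (−0.70, SE 0.39, adjusted p = 0.471). The most accessible peak of the subunit lay inside Mrps27, outside its annotated promoter window (chr13:99353069-99353577), with 181 ± 13.9 CPM in Flcn KO and 192 ± 10.9 CPM in WT (−0.08, SE 0.09), which is 367 CPM per kb.

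In the large mitochondrial subunit, the promoter of Mrpl12, a protein of the stalk that also binds the mitochondrial RNA polymerase, had 6.65, 7.48, 10.4 and 5.33 CPM in Flcn KO replicates 1 to 4, against 12.04, 9.37, 10.2 and 14.3 CPM in WT. Flcn KO replicate 3 lay within the WT range and the others below it (difference of −0.60 log2 units, SE 0.27, edgeR adjusted p = 0.311). The Mrpl36 promoter had 17.2, 16.6, 17.7 and 9.53 CPM in Flcn KO, against 22.8, 17.8, 25.5 and 19.2 CPM in WT (−0.46, SE 0.21, adjusted p = 0.315). The groups there are parted by a narrow gap between Flcn KO replicate 3 and WT replicate 2. Mrpl58, a peptidyl-tRNA hydrolase built into the ribosome, had a weak promoter peak (3.23 ± 0.750 CPM in Flcn KO and 4.21 ± 0.876 CPM in WT, SD, n = 4) with an interval from −1.19 to 0.43. The Mrpl28 promoter and a peak 13.02 kb from Mrpl40 were above 0, with differences of 0.24 (SE 0.23) and 0.40 (SE 0.26) log2 units that did not pass (adjusted p = 0.742 and 0.579).

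Away from promoters, 73 tested peaks were assigned to mitochondrial genes. Mrpl1 carried 6 tested peaks in both directions: a peak inside the gene (chr5:96219543-96219971) had 1.96, 6.95, 4.48 and 3.05 CPM in Flcn KO replicates 1 to 4, against 8.30, 12.05, 6.63 and 9.35 CPM in WT. Flcn KO replicate 2 lay just above the lowest WT library, and the log2 fold change of −1.15 (SE 0.34) missed the threshold (edgeR adjusted p = 0.0629). It was called without Flcn KO replicate 2 (adjusted p = 0.0233). Another Mrpl1 peak, 7.19 kb outside the gene, had 27.3 ± 3.18 CPM in Flcn KO and 20.6 ± 1.73 CPM in WT (SD, n = 4; 0.41, SE 0.17, adjusted p = 0.260). A peak 550 bp from Mrpl58 had 12.4 ± 5.03 and 18.8 ± 3.17 CPM in Flcn KO and WT (−0.60, SE 0.23, adjusted p = 0.211), and was called without Flcn KO replicate 2, whose 19.8 CPM lay among the WT libraries (adjusted p = 0.0389). A peak 45.5 kb from Mrpl36, with 27, 4, 6 and 0 counts in Flcn KO and 20, 34, 14 and 14 in WT, was called without Flcn KO replicate 1 (adjusted p = 0.0165). These refits left out the Flcn KO library that overlapped the WT libraries, which favours a call by construction, so they add no support. Without Flcn KO replicate 2, 845 of 50337 tested peaks were called in all, and without Flcn KO replicate 1, 1797 of 49782.

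**Figure D4:**
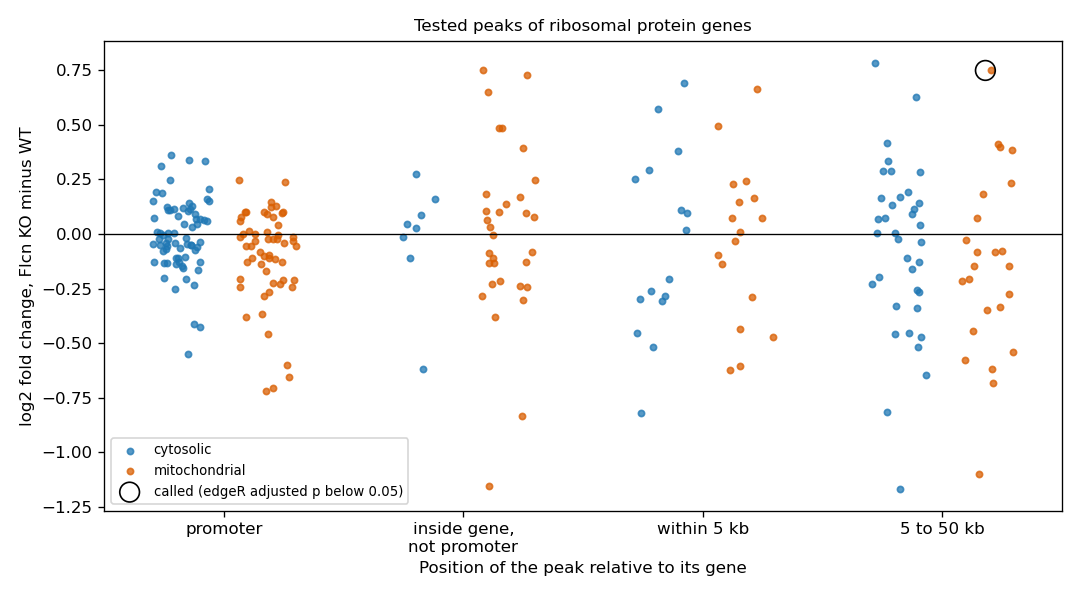
Log2 fold change, Flcn KO minus WT, of the 132 cytosolic and 130 mitochondrial tested peaks by position: promoter, elsewhere inside the gene, within 5 kb of it, or 5 to 50 kb away; the circle marks the 1 called peak, at 0.75 near Mrps28. The spread is narrower at promoters (−0.72 to 0.36) than outside them (−1.17 to 0.78).

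Counts summed over the promoter peaks of each gene gave no call at the members. Of 69 cytosolic and 57 mitochondrial genes tested, 0 were called by edgeR, DESeq2 or limma-voom, beside 0.365% of 9600 genes by edgeR. At an unadjusted p below 0.05, 4 cytosolic genes (2 higher, 2 lower) and 3 mitochondrial genes (all lower) were counted. Over all genes this held for 9.36%, 484 higher and 415 lower. The fit of single peaks leaned the other way, with 237 promoter peaks of all genes higher and 503 lower. The 2 fits were scaled differently: the gene sums to promoter counts alone, the single peaks to counts over all peaks. At Rps24, which has 1 promoter peak, the log2 fold change was −0.37 in the gene fit and −0.41 in the peak fit. The median was 0.00 over all genes and −0.04 over promoter peaks of all genes. How much of the lean the scaling makes was not tested. Rpl31, a 60S protein, was among the higher genes, with a difference of 0.20 log2 units (SE 0.10, edgeR unadjusted p = 0.0491, adjusted p = 0.529). Its sum holds 1 promoter peak, and in the fit of single peaks 0 cytosolic promoter peaks were higher at an unadjusted p below 0.05.

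Promoters whose peak was assigned to a neighbour were read separately. Of 5 tested peaks over cytosolic and 16 over mitochondrial starts, 0 were called by edgeR, DESeq2 or limma-voom, beside 0.537% of promoter peaks of all genes by edgeR. At an unadjusted p below 0.05 there were 0 cytosolic and 4 mitochondrial peaks (25% of the 16, 1 higher and 3 lower in Flcn KO), beside 7.23% of promoter peaks of all genes. The Rpl37 start, in a peak assigned to Card6, lay at 440 CPM per kb, above Rpl15, with 253 CPM in Flcn KO and 234 CPM in WT (difference of 0.11 log2 units, SE 0.09, edgeR adjusted p = 0.670). The start of Mrpl57, in a peak assigned to Ska3, had 9.94 CPM in Flcn KO and 16.7 CPM in WT, with no overlap of the libraries (−0.74, SE 0.24, adjusted p = 0.0921). The libraries did not overlap at 2 of the 16 mitochondrial peaks (12.5%), beside 4.88% of promoter peaks of all genes. The other was that over the Mrps18c start, also lower in Flcn KO. Of the promoter peaks assigned to members, 5 of 72 at cytosolic and 10 of 57 at mitochondrial genes also overlapped the promoter window of another gene.

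The share of all counts that fell into promoter peaks of the members overlapped between the genotypes. Cytosolic promoter peaks took 0.283%, 0.319%, 0.290% and 0.300% of counts in Flcn KO replicates 1 to 4, against 0.293%, 0.287%, 0.307% and 0.319% in WT. Mitochondrial promoter peaks took 0.226%, 0.255%, 0.229% and 0.245% in Flcn KO, against 0.243%, 0.226%, 0.255% and 0.257% in WT. The libraries low for one ribosome were also low for the other and for promoters as a whole, whose share was 47.4 ± 1.60% in Flcn KO and 48.3 ± 1.52% in WT (SD, n = 4; exact two-sided permutation test, p = 0.457, where the smallest possible p is 0.0286). The within-group SD of log2 CPM had a median of 0.19 at cytosolic and 0.23 at mitochondrial promoters, beside 0.21 at promoter peaks of all genes.

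**Figure D5:**
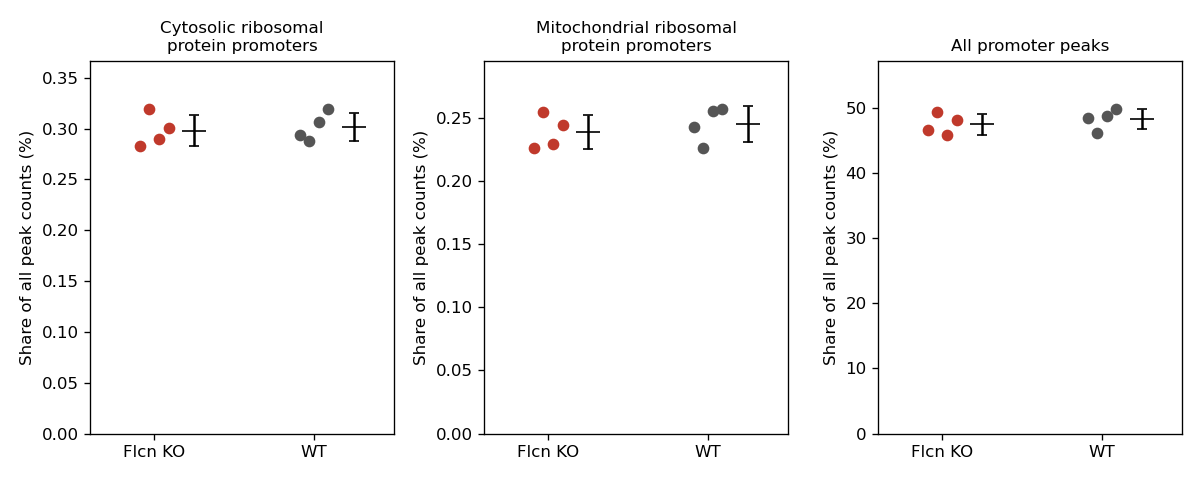
Share of all peak counts, in percent, that fell into promoter peaks of cytosolic and mitochondrial ribosomal protein genes and of all genes; points are libraries and bars the mean ± SD of 4. Flcn KO and WT overlap in each panel, for all promoters at 47.4% and 48.3%.

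Promoter sequences of the members were searched for motifs. RefSeq windows were at hand for 61 cytosolic genes (73 windows) and 69 mitochondrial genes (75 windows), of 21262 windows in all, and matches were counted on either strand. A TOP start, a C at the annotated start followed by at least 4 pyrimidines, was found in 14 cytosolic windows (19.2%) and 0 mitochondrial windows, beside 2.21% of all windows. Annotated starts can be off by a few bases, so these shares count annotations. The 12 tested promoter peaks of genes with a TOP start had log2 fold changes between −0.55 and 0.19. Their median was −0.06, against 0.04 for the 38 promoter peaks of cytosolic genes that have windows but none with an annotated TOP start. Promoter peaks of genes without a window were left out. Of the 12, 0 were called by edgeR and 0 had an unadjusted p below 0.05, beside 0.537% and 7.23% of promoter peaks of all genes.

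The ETS core CCGGAAG was in 35.6% of cytosolic and 34.7% of mitochondrial windows, beside 11.6% of all windows. The YY1 motif AAGATGGC was in 7 of 73 cytosolic (9.59%) and 12 of 75 mitochondrial windows, beside 3.05%, and the ZNF143 motif ACTACAA in 5.48% and 6.67%, beside 3.60%. The palindromic NRF1 motif was in 2.74% and 4.00%, beside 1.33%, Sp/KLF (GGGCGG) in 57.5% and 52.0%, beside 46.2%, and the TATA box TATAAA in 9.59% and 6.67%, beside 12.6%. The E-box CACGTG, the core of sites bound by TFEB, TFE3 and Myc, was in 8 cytosolic (11.0%) and 7 mitochondrial (9.33%) windows, beside 7.84%. Its extended form TCACGTGA, which contains it, was in 2 cytosolic (2.74%) and 4 mitochondrial (5.33%) windows, beside 1.23% of all windows. A gene can have several windows, and these belong to 1 cytosolic gene, Rpl34, and 2 mitochondrial genes, Mrpl2 and Mrps18c. The Rpl34 promoter had 76.0 CPM in Flcn KO and 75.4 CPM in WT (difference of 0.01 log2 units, SE 0.11, edgeR adjusted p = 0.985). The starts of Mrpl2 and Mrps18c, in peaks assigned to Klc4 and Helq, had differences of 0.24 (SE 0.15) and −0.48 (SE 0.18) log2 units, with adjusted p = 0.541 and 0.185. Their unadjusted p was 0.116 and 0.0110 (edgeR). The 6 cytosolic and 2 mitochondrial promoter peaks assigned to genes with CACGTG, which leave out the starts of Mrpl2 and Mrps18c, lay between −0.46 and 0.25. Of these, 0 were called by edgeR, beside 0.537% of promoter peaks of all genes. At an unadjusted p below 0.05 there was 1, at Mrpl36, beside 7.23% of promoter peaks of all genes. At these shares, few or no calls would be found among so few peaks.

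Other genes of ribosome production and translation held called peaks at shares of 0% to 2.52% a list, where 2.37% of all tested peaks were called. Of 15 tested peaks at ribosomal proteins with other symbols (such as Fau, Rack1 and Dap3), 0 were called by edgeR, DESeq2 or limma-voom, with 0 at an unadjusted p below 0.05 and a median log2 fold change of −0.20. At ribosome biogenesis genes, 2 of 141 rose, 1 fell and 138 did not pass, with a median of −0.06. Both higher peaks belong to Rrp1, a nucleolar factor of 60S assembly. The peak inside the gene (chr10:78402450-78402931) had 37.5, 48.9, 48.2 and 41.1 CPM in Flcn KO replicates 1 to 4, against 15.6, 17.4, 13.3 and 19.7 CPM in WT. The groups are far apart, 2.66-fold (difference of 1.41 log2 units, SE 0.17, edgeR adjusted p = 5.76e-07), and the other, 659 bp from the gene, rose by 0.88 (SE 0.14). A peak inside Efl1, a GTPase that releases Eif6 from the 60S subunit, fell by 0.65 (SE 0.17, adjusted p = 0.0297), a call lost on leaving out either of Flcn KO replicates 1 and 2 or any of WT replicates 1, 2 and 4 (adjusted p up to 0.0949).

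At cytosolic translation factor genes, 119 peaks were tested: 1 rose, 2 fell and 116 did not pass. The median was −0.02. The higher peak is the promoter of Eef2k (chr7:120842496-120843661), the kinase that inhibits elongation factor 2 and is itself inhibited downstream of mTORC1. It had 84.9, 89.2, 102 and 101 CPM in Flcn KO replicates 1 to 4, against 68.5, 62.9, 63.7 and 68.4 CPM in WT. All Flcn KO libraries lay above the WT libraries (94.3 ± 8.62 CPM in Flcn KO and 65.9 ± 2.98 CPM in WT, SD, n = 4; difference of 0.51 log2 units, SE 0.11, edgeR adjusted p = 0.00310). Peaks inside Eif3h, a subunit of an initiation factor, fell by 1.67 (SE 0.38) and 1.10 (SE 0.25), and both calls ended without WT replicate 2 (adjusted p up to 0.113), the first also without Flcn KO replicate 3. At genes of mitochondrial translation and ribosome assembly, 0 of 67 rose, 1 fell and 66 did not pass. That peak, inside Afg3l2, which encodes a subunit of the m-AAA protease, held 3, 4, 5 and 0 counts in Flcn KO and 18, 21, 10 and 13 counts in WT, and its call ended by limma-voom and without any 1 of the 8 libraries (adjusted p = 0.0411, up to 0.192). Of 65, 50 and 36 tested promoter peaks in the last 3 lists, 1 was called, at Eef2k, where 0.537% of promoter peaks of all genes were called.

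Ribosomal protein genes have many processed pseudogenes with nearly the same exons, and how reads that map to several places were treated is not given in the sources used here, so peaks that reach into exons are less certain than those upstream of the start.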

How the data were processed

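ATAC-seq was measured in 4 Flcn KO and 4 WT libraries of sorted splenic Treg cells, grouped by sample title. The deposited table holds unnormalized counts for the 8 libraries over 1 common set of peaks (mm10). The submitters' processing notes name MACS2 2.1.1, SAMtools 1.9, bedtools 2.25.0, BWA 0.7.16, Trimmomatic 0.36 and Picard 2.9.4; their roles, duplicate removal and any transposase shift are not stated there. Starts counted from 0 were converted to count from 1.

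Peaks were assigned to the nearest of 21883 RefSeq protein-coding genes of GRCm38.p6 (ties to the nearest gene end); 17491 of these had promoter windows. Peaks kept by filterByExpr (minimum count 10; 47859 of 57199) were scaled by TMM and tested with edgeR's quasi-likelihood test (edgeR 4.0.16, R 4.3.3) across all peaks, with genotype as the only term. A peak was called at an adjusted p below 0.05. Levels are CPM relative to the TMM-scaled library size. Standard errors and 95% intervals come from the log2 fold change and the F value; within-group SDs used log2(CPM + 0.5). Tests were checked on simulated data. Alternatives were other scalings and filters, DESeq2 1.42.0, limma 3.58.1 (voom with sample weights), a replicate block, leaving out each library, and a 5 kb limit. Errors rest on the spread between libraries, which range from 2723344 to 5111728 counts. No 2 libraries of a group were copies (chi-square per peak 2.18 to 3.56).

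The members, lists and tests were chosen with earlier results of these data known. Genes were named by rule: called peaks; for each ribosome, the 5 highest levels, the 5 lowest p and the 4 largest changes in each direction at or above the median level; and 17 genes with known roles. Rpl35a, Rpl26, Mrpl11, Mrpl52, the lowest promoters, genes whose libraries did not overlap, motif-bearing genes and Rpl31 were named after their values were seen. Some items named by the rule are not reported here.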

Additional observations from a re-analysis of the deposited data

Results flagged for a closer look

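A library was picked out where its gap to the nearest library of its group was too large a part of the group's range by Dixon's criterion for 4 libraries. This held in 8 of 98 groups checked, where chance picks about 1 in 20. None of these peaks was called.

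In Flcn KO, replicate 1 stood apart at the Rps29 promoter (85.2 CPM, the others 114 to 119 CPM), at a peak 35.6 kb from Rpl11 (12.3 CPM, the others 7.62 to 7.96 CPM) and at the Mrpl32 promoter (133 CPM, the others 149 to 150.1 CPM). Replicate 4 stood apart at the Mrpl36 promoter (9.53 CPM, the others 16.6 to 17.7 CPM).

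In WT, replicate 4 stood apart at the Rplp0 promoter (75.3 CPM, the others 56.7 to 57.5 CPM) and replicate 3 at the Rps6 promoter (90.3 CPM, the others 81.4 to 82.5 CPM). Replicate 2 stood apart at the Mrpl50 promoter (157 CPM, the others 145 to 147 CPM) and at the Rpl5 promoter (22.3 CPM, the others 31.0 to 32.6 CPM).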

How the results depend on the processing

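For cytosolic genes and for the promoter peaks of either ribosome, 0 peaks were called under every alternative, including every peak over a member's promoter window, an alternative added after seeing the data. The called peak near Mrps28 was called in all 15 refits (log2 fold change 0.57 to 0.84, adjusted p 0.000220 to 0.00651). The mitochondrial count was 1 to 3 when 1 library was left out and 0 within 5 kb, which leaves out the Mrps28 peak by construction. With the replicate number as a block it was 2, adding the Mrpl1 peak at 96219543 (adjusted p = 0.0315), and all calls came to 1375. Same-numbered libraries did not deviate together (correlations −0.05 to 0.08), and 1 of 4 numbers gave the best correlation with its own partner. The labels do not say whether libraries of the same number belong together, so the block was kept as an alternative only. Leaving out 1 library moved all calls between 665 (without WT replicate 2) and 1797 (without Flcn KO replicate 1), and gene-level promoter calls between 16 (without Flcn KO replicate 4) and 151 (without Flcn KO replicate 1), with 17, 23, 21 and 20 without WT replicates 1, 2 and 4 and Flcn KO replicate 3. Those gene calls were 35, 23 by library size only and 55 as peaks; 0 were members in any gene-level fit. The cause was not tested. The median changes moved by less than the spread between libraries, and among 43 named peaks 638 of 641 refits kept their side of the threshold. Depth limits the weak promoters, where intervals pass 2-fold.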
